A study of Macaca mulatta with 10 samples.

Results

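*SPOCK1* and 8 genes of small leucine-rich proteoglycans (SLRPs), *DCN*, *BGN*, *ASPN*, *FMOD*, *LUM*, *PRELP*, *OGN* and *OMD*, were followed in adipose tissue and skeletal muscle of 5 male rhesus monkeys. *SPOCK1* and *FMOD* were chosen by their high levels in the adipose tissue of the hyperinsulinemic monkey rhesus_950807, and the other genes were added as their family. By symbol, 8 of the 9 named genes were found among the 28595 genes listed. The hyperinsulinemic monkey, the only case with libraries here, was heterozygous for a nonsense mutation of *PRKD2*, a kinase gene, and its label gives extreme high insulin. The paper also describes this monkey as more obese, by body weight and waist, and as severely insulin resistant. With 1 case, these traits and the genotype cannot be told apart. Monkeys rhesus_920401, rhesus_940129, rhesus_940313 and rhesus_950509 were the controls, labelled as such with no other genotype or treatment. Each animal gave 1 library of fat and 1 of muscle, 10 in all, so the case stands for 1 animal with no replicate. The study gave all of its monkeys the same chow in the same facility, and neither ages nor the depots sampled were given for these libraries in the sources used here.

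SLRPs are secreted proteins of the extracellular matrix with a leucine-rich core, which in many of them carries chondroitin, dermatan or keratan sulfate chains. They bind collagen fibrils and help set their spacing and width, and several also bind growth factors such as TGF-β or receptors at the cell surface. Fibroblasts and other stromal cells are their main source in connective tissue, and tendon and fascia are rich in them. SPOCK1, also called testican-1, is a secreted proteoglycan of another family, related to SPARC, with a core that binds calcium and holds an inhibitor-like domain for proteases. In bulk RNA of a tissue, fewer cells of a type and less RNA per cell cannot be told apart.

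On the chromosomes, several of these genes lie as neighbours. By the coordinates of the deposited files, whose genome build is not given in the sources used here, *DCN* (chr11:92343027-92377669) and *LUM* (chr11:92301210-92309314) were 33.71 kb apart on the minus strand with 0 listed genes between them. *FMOD* (chr1:167075744-167086300, plus strand) and *PRELP* (chr1:166935748-166949951, minus strand) were 125.8 kb apart, again with 0 genes between. *OGN* (chr15:104289012-104309526) and *ASPN* (chr15:104361925-104380164), both on the minus strand, were 52.4 kb apart with 1 unnamed gene between. *BGN* (chrX:151599392-151613954) was on the plus strand and *SPOCK1* (chr6:133394835-133907558) on the minus strand. Of all listed genes, 0 overlapped any of the 8.

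Values are reads counted per gene and RPKM, that is, reads per kilobase of transcript and per 1e6 mapped reads of the library. RPKM is a level per length and can be set side by side between genes. Mapped reads numbered 30669915 to 39379286 in control fat, 41780234 in the fat of the case, 35682861 to 43268985 in control muscle and 33961486 in the muscle of the case. The adipocyte markers summed to 2439 to 6022 RPKM in control fat and 4155 in the fat of the case, against 43.9 to 98.7 in control muscle. Among them *FABP4* alone went the other way, at 0.254 to 3.44 RPKM in control fat and 27.7 to 68.7 in control muscle. Skeletal muscle fiber markers summed to 62363 to 81932 RPKM in control muscle and 82076 in that of the case. The same markers stood at 317 RPKM in the fat of rhesus_920401 and 196 in that of rhesus_940313, against 35.2 in rhesus_940129, 15.4 in rhesus_950509 and 29.1 in the case. Fat comparisons are therefore also given without the libraries of rhesus_920401 and rhesus_940313.

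**Figure D1:**
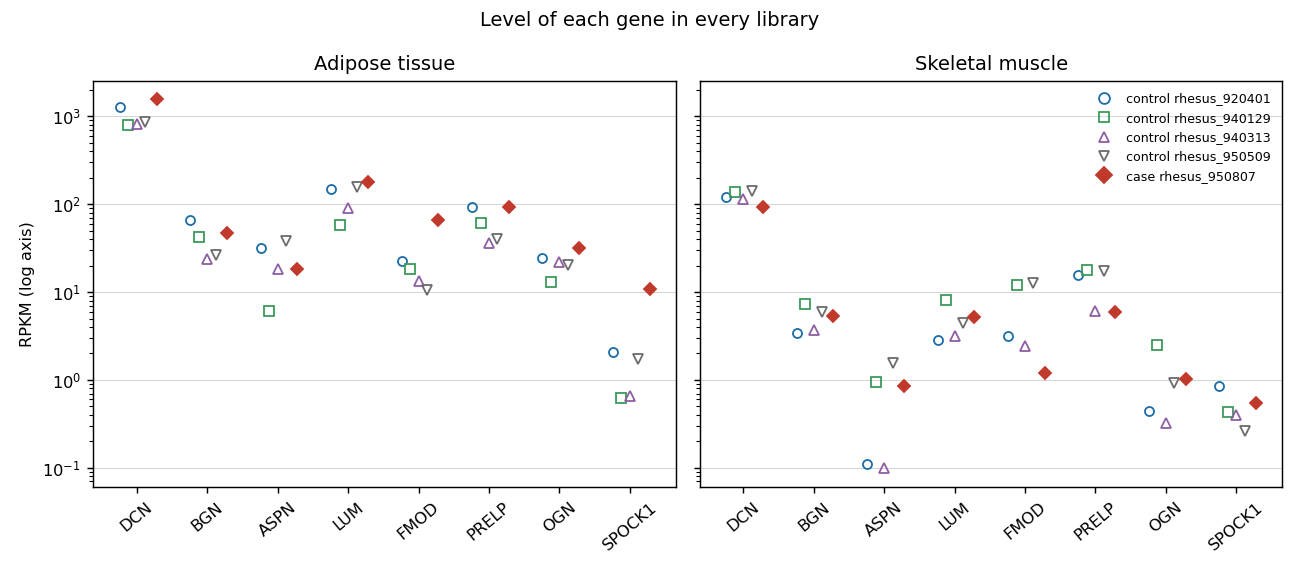
RPKM (log axis) of the 8 genes in fat (left) and muscle (right), with open symbols for the 4 control monkeys and a red diamond for the case, monkey rhesus_950807. *DCN* was the most abundant in every library, and *SPOCK1* in the fat of the case, at 10.96 RPKM, stood above control fat at 0.618 to 2.08.

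Decorin (*DCN*), the SLRP that binds type I collagen and TGF-β, was the most abundant of the genes in all 10 libraries. Its fat level was 1278 RPKM in rhesus_920401, 790.1 in rhesus_940129, 813.3 in rhesus_940313, 869.3 in rhesus_950509 and 1557 in the case, from 53338 to 143186 reads. Among the control fat libraries, rhesus_920401 stood apart from the other 3. In muscle *DCN* was at 119.6, 138.8, 114.0 and 140.6 RPKM in the same order of controls and at 93.2 in the case. The fat and muscle ranges did not overlap in controls, and the case was above all of them in fat and below all of them in muscle.

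Biglycan (*BGN*), a close relative of decorin, was at 66.4, 42.1, 24.0 and 26.6 RPKM in the fat of rhesus_920401, rhesus_940129, rhesus_940313 and rhesus_950509 and at 47.1 in that of the case, inside the control range. In muscle it was at 3.43, 7.31, 3.67 and 5.94 RPKM, from 308 to 606 reads, and at 5.32 in the case, again inside the range. Asporin (*ASPN*), the third of this class, has an acidic stretch and binds collagen. Its highest control was further from its lowest, as a ratio, than for any other of the genes in either tissue, at 32.0, 6.04, 18.3 and 37.7 RPKM in fat, with 18.5 in the case. Its muscle level was 0.110, 0.954, 0.098 and 1.55 RPKM in controls and 0.846 in the case, from only 4 to 53 reads in controls and 27 in the case.

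Lumican (*LUM*), a keratan sulfate SLRP, was at 148.7, 58.5, 91.4 and 157.4 RPKM in control fat and at 176.8 in the fat of the case, above all controls. Control muscle gave 2.87, 8.23, 3.20 and 4.45 RPKM, and the case 5.21, within that range. *PRELP*, whose protein links collagen to basement membrane proteoglycan, was at 92.2, 61.4, 35.9 and 40.1 RPKM in control fat. The case had 93.5 RPKM of *PRELP* in fat, just above rhesus_920401. In muscle *PRELP* was at 15.5, 17.7, 6.08 and 17.4 RPKM in controls and 6.01 in the case, just below rhesus_940313. Osteoglycin (*OGN*), of the third SLRP class, was at 24.7, 12.9, 22.1 and 20.3 RPKM in control fat and 31.7 in the case, and at 0.441, 2.47, 0.325 and 0.916 RPKM in control muscle and 1.01 in the case.

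Fibromodulin (*FMOD*), a keratan sulfate SLRP of collagen fibrils that is abundant in tendon, had 2169, 1642, 1511 and 1232 reads in the fat of rhesus_920401, rhesus_940129, rhesus_940313 and rhesus_950509, and 8008 in that of the case. On the RPKM scale this was 22.8, 18.3, 13.4 and 10.7 in controls (16.3 ± 5.35, SD, n = 4) and 65.5 in the case. *FMOD* in muscle was at 3.15, 12.04, 2.42 and 12.79 RPKM in controls, from 306 to 1362 reads, which falls into a pair of high and a pair of low libraries. The case had 119 reads of *FMOD* in muscle, or 1.197 RPKM, below all 4 controls. The 95% Poisson interval of the 119 reads, 98.6 to 142.4, covers counting error only.

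*SPOCK1* was the lowest of the genes in control fat, with 315, 88, 118 and 316 reads in rhesus_920401, rhesus_940129, rhesus_940313 and rhesus_950509. The case had 2127 reads. As RPKM, control fat was at 2.08, 0.618, 0.659 and 1.73 (1.27 ± 0.746, SD, n = 4) and the case at 10.96. Muscle held little *SPOCK1*, at 0.853, 0.428, 0.398 and 0.260 RPKM in controls and 0.551 in the case, from 44 to 153 reads. The case lay within the controls in muscle.

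The order of mean RPKM in control fat was *DCN*, *LUM*, *PRELP*, *BGN*, *ASPN*, *OGN*, *FMOD* and *SPOCK1*. The place of *ASPN* rests on its short annotated transcript, since by reads it was below *OGN* in every control fat library, at 174 to 1397 against 1067 to 2301. Among neighbours in the RPKM order, only *DCN* and *LUM*, and *FMOD* and *SPOCK1*, had ranges over the 4 controls that did not overlap. Control muscle had the order *DCN*, *PRELP*, *FMOD*, *BGN*, *LUM*, *OGN*, *ASPN* and *SPOCK1*, and there only *DCN* and *PRELP*, and *LUM* and *OGN*, did not overlap. Decorin made up 74.8% to 79.9% of the summed RPKM of the 7 SLRPs in control fat, 74.0% to 87.8% in control muscle, 78.2% in the fat of the case and 82.6% in its muscle. The share of *FMOD* was 0.920% to 1.85% in control fat and 3.29% in the fat of the case, and 1.86% to 6.97% in control muscle and 1.06% in the muscle of the case.

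The fat of the case gave the values by which *SPOCK1* and *FMOD* were chosen, so the comparison with control fat is a description with no test for any of the 8 genes. *SPOCK1* in the case was 8.61-fold the control mean and 5.26-fold the highest control, and *FMOD* was 4.02-fold the mean and 2.87-fold the highest. The other 6 genes were at 1.66-fold (*DCN*), 1.63-fold (*PRELP*), 1.59-fold (*OGN*), 1.55-fold (*LUM*), 1.19-fold (*BGN*) and 0.788-fold (*ASPN*) of the control mean. No other gene of the 8 came near the fold of *FMOD*.

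Counts scaled by TMM, which sets libraries to the same level over most genes, gave log2 differences between the case and control fat in edgeR of 2.95 ± 0.564 (SE) for *SPOCK1* and 1.82 ± 0.424 for *FMOD*. From the highest, these ranked 8 and 60 of the 11981 genes whose mean over the fat libraries reached 1 RPKM. *DCN* was at 0.55 ± 0.455, *PRELP* at 0.53 ± 0.505, *OGN* at 0.48 ± 0.431, *LUM* at 0.46 ± 0.514, *BGN* at 0.07 ± 0.538 and *ASPN* at −0.51 ± 0.770, where the median gene was at −0.06. All 8 genes passed this filter, and each also had a control mean above 1 RPKM in fat. Without the fat libraries of rhesus_920401 and rhesus_940313, the differences were 3.03 for *SPOCK1*, 1.96 for *FMOD*, 0.70 for *DCN*, 0.74 for *OGN*, 0.66 for *PRELP*, 0.52 for *LUM*, 0.24 for *BGN* and −0.42 for *ASPN*.

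The fat library of the case was above all 4 controls on the RPKM scale for 6 of the 8 genes, all but *BGN* and *ASPN*. Of the 11981 genes that passed the filter in fat, 27.9% were above and 7.8% were below. After TMM scaling it was 5 of 8, since *PRELP* then fell inside the control range. No reading is made of these counts, because the contrast served for the choice. Fibroblast and stroma markers summed to 711.6 to 1546 RPKM in control fat, with the highest in rhesus_920401, and to 1321 in the case, and 4 of the 10 had a log2 difference above 0. None of these 10 markers was at 0 in a fat library. Macrophage markers summed to 371.2 RPKM in the case and 106.4 to 306.3 in control fat, with 6 of 6 above 0, and mesothelium markers to 175.4 and 67.2 to 200.02. The part of these cells in the levels of *SPOCK1* and *FMOD* was not tested.

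**Figure D2:**
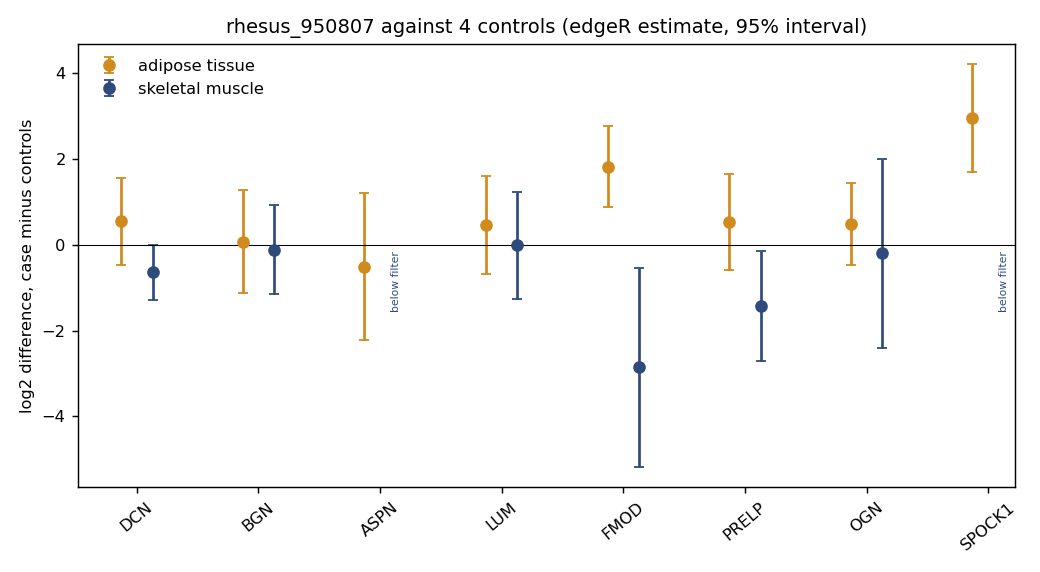
Log2 difference between monkey rhesus_950807 and the 4 controls in fat (orange) and muscle (blue), as edgeR estimates with 95% intervals, for the 8 genes. The fat of the case served to choose *SPOCK1* and *FMOD*, so the fat intervals are a description and no test. *FMOD* was at 1.82 in fat and −2.86 in muscle, *SPOCK1* at 2.95 in fat, and *SPOCK1* and *ASPN* were below the filter in muscle.

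Muscle was not used for the choice, so the same comparison was tested there. Fibromodulin was lower in the muscle of the case than in all 4 controls, at 49.5% of the lowest, and so were *DCN* at 81.8% of the lowest and *PRELP* at 98.8%. These 3 of the 8 genes were below all controls, against 15.2% of all genes, and 0 of 8 were above all controls, against 34.9%. Yet no difference passed the test. The exact permutation test of *FMOD*, *DCN* and *PRELP* gave p = 0.2 each, two-sided, which is the smallest that 1 animal against 4 allows.

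In edgeR's quasi-likelihood test over all genes, 6 of the 8 passed the filter of a mean of 1 RPKM in muscle and 0 were called at an adjusted p under 0.05, where 0% of the 8306 genes tested were called. *FMOD* had a log2 difference of −2.86 ± 1.03 (SE), with an adjusted p of 0.496 and an unadjusted p of 0.0205. *PRELP* was at −1.42 ± 0.570 (adjusted p = 0.510, unadjusted p = 0.0328) and *DCN* at −0.64 ± 0.285 (adjusted p = 0.556). The intervals of the others were wide, from −2.40 to 2.002 for *OGN*, −1.26 to 1.22 for *LUM* and −1.15 to 0.93 for *BGN*, around −0.20, −0.02 and −0.11. Thus 2 of the 6 had an unadjusted p under 0.05 in edgeR, 3 in DESeq2 and 1 in limma, where 9.08%, 10.8% and 10.3% of all genes had one. Each tool called 0 of the 6, and over all genes DESeq2 called 88 and limma 1. Leaving out each control in turn put *FMOD* at −3.178 to −2.435 and *PRELP* at −1.704 to −1.275 on the log2 scale, by edgeR. The largest differences of both were those without rhesus_940313, their lowest control in muscle. With no filter, *SPOCK1* was at 0.02 and *ASPN* at 0.15 on the log2 scale.

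Markers of tendon and fascia, summed, were high and low in much the same muscle libraries as *FMOD*. Their sum was 71.3 RPKM in rhesus_940129 and 40.02 in rhesus_950509, the controls with the most *FMOD*, 23.1 in rhesus_920401 and 15.7 in rhesus_940313, and 6.09 in the case. It came mainly from *THBS4*, a matrix protein of tendon, at 57.5, 34.7, 19.4 and 14.1 RPKM in these controls and 5.13 in the case. *COMP*, a cartilage and tendon matrix protein, was at 9.20, 3.20, 1.45 and 0.812 RPKM and at 0.296 in the case. Of the 5 markers found, *MKX* was at 0 in the case and in 3 of the 4 control muscle libraries, and *TNMD*, a tendon membrane protein, was at 0.451 RPKM in the case, inside the control range of 0.337 to 3.56. *TNC*, another matrix protein, did not follow *FMOD* in the controls, at 1.90 RPKM in rhesus_920401, 0.992 in rhesus_940129, 0.863 in rhesus_950509 and 0.329 in rhesus_940313, and was at 0.215 in the case. Fibroblast and stroma markers summed to 83.0 RPKM in the muscle of the case and 71.2 to 150.6 in controls, with 1 of 10 above 0 and a median log2 difference of −0.78. Single markers of other cells than muscle fibers were mostly below 0 too. Smooth muscle and pericytes had 0 of 8 above 0 and a median of −1.14, and macrophages 0 of 4 and −1.06. Adipocytes had 1 of 7 and −0.86, and endothelium 2 of 5 and −0.45. By summed RPKM, however, the case was inside the control range for each of these lists. Its sums were 3797 for smooth muscle and pericytes (controls 2451 to 5176) and 8.99 for macrophages (8.71 to 26.1). They were 71.3 for adipocytes (43.9 to 98.7) and 30.0 for endothelium (25.9 to 37.4). *DES*, at 2319 to 5031 RPKM in control muscle and 3735 in that of the case, made up most of the smooth muscle sum. Of the other markers in that list, *ACTA2* was at 26.2 RPKM in the case, below the controls at 44.4 to 74.4. *TAGLN*, at 16.8 against 36.1 to 44.9, *MYH11*, *CNN1* and *MCAM* were also below all 4 controls. *RGS5* and *NOTCH3* were within the controls. Muscle fiber markers had 3 of 6 above 0 and a median of −0.06, but they were not all alike. *MYH7* was at 12.9 RPKM in the case, below the controls at 45.5 to 531. *ACTA1*, at 34057 against 24384 to 31634, and *TNNT3*, at 8361 against 6365 to 8290, were above all 4 controls. *CKM*, *TNNC2* and *MB* were within the controls. The part of any of these cells in the levels of *FMOD*, *PRELP* and *DCN* was not tested.

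**Figure D3:**
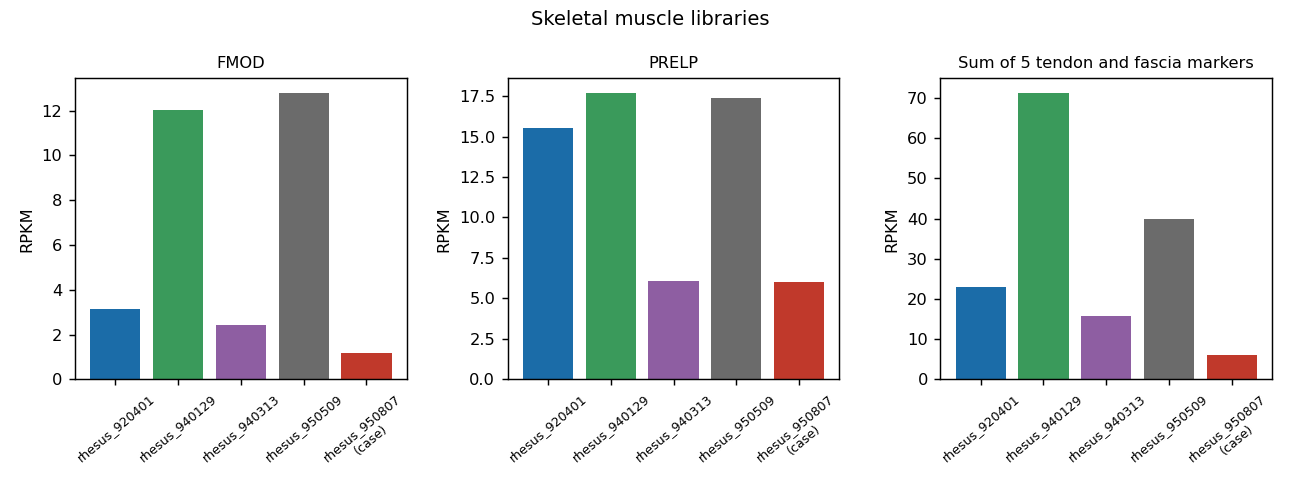
RPKM of *FMOD*, *PRELP* and the sum of 5 tendon and fascia markers in the 4 control muscle libraries and that of the case (red bar), on linear axes from 0. The controls rhesus_940129 and rhesus_950509 were highest and the case lowest for *FMOD* and for the marker sum.

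On the RPKM scale, only *FMOD*, *DCN* and *PRELP* of the 8 were above all controls in fat and below all of them in muscle. Of the 7938 genes that passed the filter in both tissues, 4.6% were. After TMM scaling *PRELP* was within the controls in fat. The fat side of that count was part of the choice, and whether the effects of the 2 tissues differed was not tested. *FMOD* was 54.7-fold higher in fat than in muscle of the case on the RPKM scale, against 7.23-fold, 1.52-fold, 5.55-fold and 0.835-fold in rhesus_920401, rhesus_940129, rhesus_940313 and rhesus_950509. *SPOCK1* was 19.9-fold higher in fat in the case and 1.44-fold to 6.63-fold in controls.

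The difference between the tissues was tested in the 4 controls, from which the fat library that served for the choice was absent. On the RPKM scale 7 of the 8 genes were higher in fat in all 4 controls, and *FMOD* in 3. RPKM rests on the mapped totals, by which the median gene was itself higher in fat, at 1.61 on the log2 scale. With those totals edgeR called 63.0% of all genes higher in fat. The share of all genes higher in all 4 controls, or with ranges apart, was not counted. These counts are therefore not read as particular to the 8 genes. The ranges of fat and muscle did not overlap for *DCN*, *BGN*, *LUM*, *OGN*, *PRELP* and *ASPN*, each with p = 0.0286 in the two-sided exact permutation test, the smallest that 4 against 4 allows. *SPOCK1* gave an exact p of 0.0857 and *FMOD* of 0.114. That test takes the 8 libraries as independent, while each animal gave both tissues. Exchanging the tissues within each animal gave an exact p of 0.125, the smallest that 4 pairs allow, for *SPOCK1* as for these 6 genes, and 0.25 for *FMOD*.

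**Figure D4:**
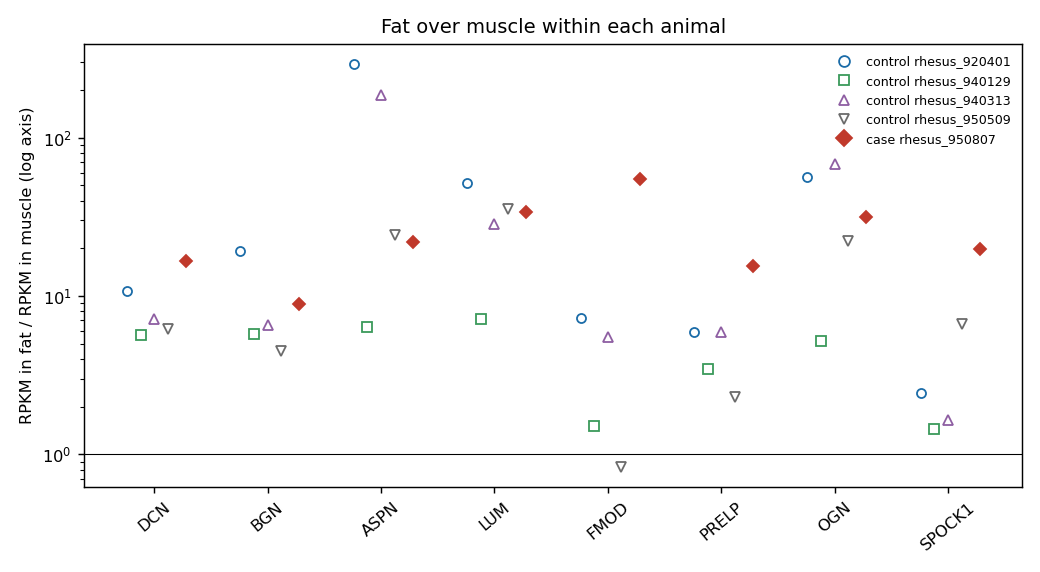
RPKM in fat divided by RPKM in muscle of the same animal (log axis), with open symbols for the 4 controls, a red diamond for the case and a line at 1. *ASPN* spread from 6.33-fold to 291-fold in controls, and *FMOD* in rhesus_950509 was the one value under 1, at 0.835.

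The folds varied between animals. *ASPN* was 291-fold, 6.33-fold, 186-fold and 24.3-fold higher in fat in rhesus_920401, rhesus_940129, rhesus_940313 and rhesus_950509, where the high folds rest on 4 reads each in muscle. *OGN* was 56.1-fold, 5.22-fold, 68.0-fold and 22.2-fold higher and *LUM* 51.9-fold, 7.11-fold, 28.6-fold and 35.4-fold. *DCN* had the smallest ratio of highest to lowest fold, at 10.7-fold, 5.69-fold, 7.14-fold and 6.18-fold. Monkey rhesus_920401 had the highest control level of 6 of the 8 genes in fat, and rhesus_940129 the lowest of 5. In muscle rhesus_940129 had the highest of 4 and rhesus_940313 the lowest of 5.

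By edgeR, 5 of the 7 genes that passed the filter were called higher in fat at an adjusted p under 0.05 and a log2 difference of at least 1, where 29.6% of the 11173 genes tested were. *ASPN* passed the filter only through fat, where it was high, so its call is tied to the filter. Of the 6 genes with a control muscle mean of at least 1 RPKM, 4 were called, against 15.5% of all such genes. *ASPN* was higher by 3.75 ± 0.826 (SE, adjusted p = 0.00208), *LUM* by 3.24 ± 0.395 (adjusted p = 3.18e-05) and *OGN* by 2.93 ± 0.539 (adjusted p = 0.000633). *BGN* was higher by 1.57 ± 0.330 (adjusted p = 0.00155) and *DCN* by 1.48 ± 0.2795 (adjusted p = 0.000752). *PRELP*, at 0.61 ± 0.351 (adjusted p = 0.148), and *FMOD*, at −0.28 ± 0.479 (adjusted p = 0.621), did not pass. *SPOCK1* was below the filter, and with no filter it was at −0.07.

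The scale of the libraries matters here. The median gene stood at 0.23 after TMM scaling and at 1.61 when scaled to the mapped totals, on which RPKM rests. Of the genes called at 2-fold, 57.4% were higher in fat after TMM scaling and 89.8% with the mapped totals. With the mapped totals *PRELP* was called, at 2.02, and *FMOD* turned to 1.10 and was not called (adjusted p = 0.0627 in edgeR). In limma on log2(RPKM + 1), which rests on the same totals, both were called, *FMOD* at 1.23 (adjusted p = 0.0179). Relative to the median gene *FMOD* was at −0.52 and −0.51 on these scales, *PRELP* at 0.38 and 0.41, and *DCN* at 1.25 and 1.26. *LUM* stood above the median gene by 3.007 and 2.998.

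A ratio within the same library does not depend on that scale. As a percent of *DCN*, *LUM* was at 7.41% to 18.1% in control fat and 2.40% to 5.93% in control muscle, and it was the one of 7 ratios whose ranges did not overlap. Over the 11172 other genes that passed the filter between the tissues, the 4 fat ratios to *DCN* lay above the 4 muscle ratios for 7.67%. *FMOD* was at 1.23% to 2.31% of *DCN* in control fat and 2.12% to 9.10% in control muscle, and *SPOCK1* at 0.0782% to 0.199% and 0.185% to 0.713%. In the fat of the case *FMOD* was at 4.21% and *SPOCK1* at 0.704% of *DCN*, both above the controls. In its muscle *FMOD* was at 1.28%, below the controls, *BGN* at 5.71%, above the controls with 2.87% to 5.27%, and *SPOCK1* at 0.592%, within them.

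**Figure D5:**
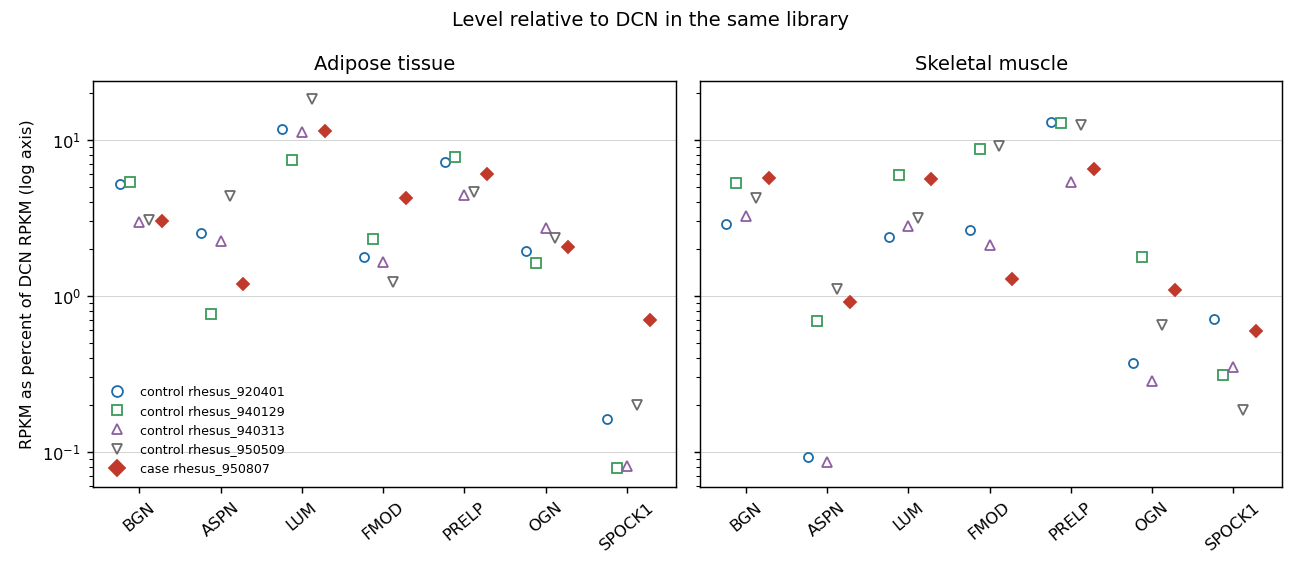
RPKM of the other 7 genes as a percent of the *DCN* RPKM of the same library (log axis) in fat (left) and muscle (right), with open symbols for the 4 controls and a red diamond for the case. *LUM* lay between 7.41% and 18.1% in control fat and between 2.40% and 5.93% in control muscle.

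Of 105 genes in 10 lists of the SLRP pathway, 85 were found and 65 passed the filter between the tissues. Of these, 33 were called higher and 4 lower in fat of the controls, against 29.6% and 22% of all genes. Of the 33, 15 had a control muscle mean below 1 RPKM and passed the filter only through fat. Among the 40 list genes at or above it in muscle, 18 were called higher, against 15.5% of all such genes. With the mapped totals 59 of the 65 were called higher and 0 lower, against 63.0% and 7.15% of all genes. These tests are edgeR's, adjusted over all genes, and the median gene was at 0.23. In the SPARC family, to which *SPOCK1* is related, 3 of 6 rose in fat, with a list median of 1.45. *SPARCL1* was higher by 2.02 ± 0.258 (SE), *FSTL1* by 2.27 ± 0.390 and *SPOCK3* by 2.32 ± 0.637. *SPOCK2*, which encodes testican-2, was at 38.5 ± 6.92 RPKM (SD, n = 4) in control fat and 43.4 in the case, so the 10.96 RPKM of *SPOCK1* in the case was still lower. *SPOCK3*, for testican-3, was at 12.2 ± 3.35 RPKM in control fat and 5.70 in the case. Its control muscle mean was 0.946 RPKM, so it passed the filter only through fat.

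Collagens that SLRPs bind were higher in fat in 6 of 9 genes, with a median of 1.81. *COL14A1*, a fibril-associated collagen, was higher by 2.89 ± 0.284 (SE) and *COL3A1* by 1.95 ± 0.285. *COL1A1* was at 252.7 ± 64.9 RPKM (SD, n = 4) in control fat and 475.3 in the case. The proteases that cut small proteoglycans were called in 4 of 5, *ADAMTS5* with 5.08 ± 0.950 at the top, although its control muscle mean was 0.191 RPKM, and *MMP14* with 2.46 ± 0.303. Receptors and ligands that SLRPs bind were called higher in 5 of 9 and lower in 1, among them the innate receptor *TLR4*, a partner of biglycan, by 3.02 ± 0.499.

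Enzymes that build the sugar chains were mixed. For chondroitin and dermatan sulfate, 3 of 10 were higher in fat, with *UST*, a sulfotransferase, at 3.07 ± 0.510 (SE) and the epimerase *DSE*, which makes dermatan sulfate, at 2.39 ± 0.480, and 1, *CHST12*, was lower by TMM scaling, at −1.11, but at 0.29 with the mapped totals, and lost its call without rhesus_940313. For the linker to the core protein, *FAM20B* was higher, at 1.35, and *B3GALT6* and *B4GALT7* were lower, at −1.89 and −1.19, although *B4GALT7* turned to 0.21 with the mapped totals and lost its call without rhesus_920401. Of keratan sulfate enzymes 3 of 5 were higher, *B3GNT7* by 4.03 ± 0.755. *UST*, *DSE*, *B3GNT7* and the receptor *TLR4* were among the genes that passed the filter only through fat.

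Of the other SLRPs, *EPYC* and *PODN* passed the filter. *PODN* was at 23.2 ± 9.40 RPKM (SD, n = 4) in control fat and 42.3 in the case, and was not called between the tissues, at 0.60. *EPYC* was called, but rested on 1 library. It had 913 reads in the fat of rhesus_950509, 20 in that of rhesus_940313, 0 in the fat of rhesus_920401 and rhesus_940129 and 90 in that of the case, and the adjusted p by edgeR was 0.0345, 0.0511 without rhesus_940129 and 0.0816 without rhesus_940313. Without rhesus_950509 it did not pass the filter. Large proteoglycans were higher in 3 of 6, with *PRG4*, or lubricin, at 3.31 ± 0.813 (SE), *VCAN* at 1.65 and *HSPG2* at 1.24, which lost its call without rhesus_940129 or rhesus_950509. Cell-surface proteoglycans were higher in 4 of 8, with *TGFBR3*, the betaglycan that binds TGF-β, at 3.54 ± 0.348 and *SDC2* at 2.01 ± 0.217. The control muscle means of *TGFBR3*, *VCAN* and *EPYC* were 0.959, 0.433 and 0.0254 RPKM. These genes passed the filter only through fat, where they were high, so their calls are tied to the filter.

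Between the case and the controls, edgeR called 0 of the 69 list genes tested in fat, where 0% of the 11981 genes were called, and 0 of the 41 tested in muscle. At an unadjusted p under 0.05 there were 2 in fat, both of the SPARC family, against 2.39% of all genes, and 7 in muscle, against 9.08%. DESeq2 called 0 list genes in both, and over all genes 11 in fat and 88 in muscle. Without the fat libraries of rhesus_920401 and rhesus_940313, 1 case stands against 2 controls. The protease *MMP9* then had a log2 difference of 5.48 ± 1.10 (SE) in edgeR, against 2.44 ± 1.15 with all 4 controls. *MMP9*, named after its values were seen, was at 7.05 RPKM in the fat of the case, 2.52 and 1.79 in the libraries left out and 0.141 and 0.131 in the other 2 controls, and with all 4 controls its adjusted p was 0.9999 in edgeR. In fat 49 of the 69 had a log2 difference above 0, against 44.2% of all genes, and with the mapped totals 61 did, against 62.3%. In muscle 11 of the 41 did, against 47.6%, and with the mapped totals 14, against 62.2%. Relative to the median gene, the list genes had a median of 0.29 in fat and −0.32 in muscle on both scales. Collagens had 8 of 9 above 0 and a median of 0.45 in fat and 1 of 8 above 0 and a median of −0.31 in muscle. Proteases had 6 of 6 above 0 and a median of 0.32 in fat, and 1 of 4 and −1.15 in muscle. Other lists went the other way, with 3 of 5 above 0 and a median of 0.48 for chondroitin and dermatan sulfate synthesis in muscle and a median of −0.47 for the 2 other SLRPs in fat. Linker synthesis in fat, with 2 of 5 above 0 and a median of −0.03, was near the median gene at −0.06. In muscle *MMP14* was at −1.34 ± 0.432 (SE, adjusted p = 0.482).

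The genes most like *SPOCK1* and *FMOD* over the 10 libraries were taken by the root mean square difference of log2(RPKM + 1), each gene centred on its own mean, among 11262 genes. For *SPOCK1* they were 2 genes without a symbol and *PLEKHA6*, at 0.321, 0.398 and 0.419, where the median gene was at 0.881. *PLEKHA6* was at 4.16 RPKM in the fat of the case and 0.885 to 2.09 in control fat. For *FMOD* they were *CACNB3*, a calcium channel subunit, at 0.575, between 2 genes without a symbol at 0.502 and 0.581, where the median was 1.15. *PRELP*, at 0.598, was the most like *FMOD* among the 8 genes. These likenesses share the libraries and their depth and are a description.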

How the data were processed

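Poly(A) RNA of fat and muscle was sequenced strand-specifically with the dUTP method, 1 library per animal and tissue. Mapping was done with TopHat, named as 1.2.0 in the submitters' processing notes, while the paper gives a different release, and which one made the files is not settled. Per the paper only reads with a unique position were kept. The counting tool, genome build and annotation were not given in the sources used here. The authors deposited read counts per gene and RPKM values made from them, checked to equal reads per kilobase of transcript and per 1e6 mapped reads. Symbols came from an Ensembl name table. *OMD* was matched by that table to an ID with no value here and is named only.

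Counts were tested with edgeR 4.0.16 (quasi-likelihood, TMM, R 4.3.3) over genes whose mean reached 1 RPKM in the compared libraries, with Benjamini-Hochberg adjustment over all of them. The lone case is assumed to vary like the controls. Exact permutation tests compared mean log2 RPKM. Alternatives were median-of-ratios scaling, scaling to mapped totals, DESeq2 1.42.0, limma 3.58.1 on log2(RPKM + 1) and log2(RPKM + 0.1), no filter, a filter at 5 RPKM, leaving out each control, leaving out the fat libraries of rhesus_920401 and rhesus_940313, a fit of all 10 libraries and the animal as a replicate block. Both tissues came from the same animals, so the pairing comes from the animal. The deviations of an animal's fat and muscle libraries from the control means correlated across genes by −0.171 to 0.162. Fits were tested on simulated counts. Exchange of tissues within animals and further settings for the list counts were added after the data were seen.

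The genes, the 10 pathway lists and the 8 marker lists were chosen with earlier results of these data known. Named from each list were at most 4 genes, those with the smallest p between the tissues of controls, plus the 3 genes most like *SPOCK1* and *FMOD*. The marker genes *THBS4*, *COMP*, *MKX*, *TNMD* and *TNC*, and the single smooth muscle and muscle fiber markers, were named after their values were seen. Separate animals are the replicates, and intervals of read counts cover counting error only.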

Additional observations from a re-analysis of the deposited data

Results flagged for a closer look

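*DCN* in control fat was flagged because its highest library, rhesus_920401 at 1278 RPKM, lay far from the other 3, which were at 790.1 to 869.3. The gap was 0.838 of the whole range, above Dixon's critical value for 4 samples. Chance flags about 1 in 20 groups.

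A difference between the tissues flagged 3 genes, for which the case lay above all 4 controls in fat and below all 4 in muscle on the RPKM scale, while after TMM scaling *PRELP* in fat was within the controls. The TMM-scaled log2 difference in fat minus that in muscle was 4.68 for *FMOD*, 1.95 for *PRELP* and 1.19 for *DCN*. This difference was not tested, and the fat of the case had served to choose *FMOD*.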

How the results depend on the processing

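The number of the 8 genes called stayed at 0 in muscle under all 13 alternatives. Between the tissues 5 were called by edgeR and DESeq2, 6 with the mapped totals and 7 in limma, and the replicate block called 5. Of all genes, 29.6% were called higher in fat by edgeR, 28.8% by DESeq2 and 29.2% with the replicate block. The share rose to 63.0% with the mapped totals and to 56.3% and 62.7% in limma with pseudocounts of 1 and 0.1. The list genes called between the tissues were 37, and 31 to 42 by DESeq2, with no filter and without 1 control. Settings added for this count after the data were seen gave 59 with the mapped totals and 58 in limma with a pseudocount of 0.1. Leaving out the fat libraries of rhesus_920401 and rhesus_940313 for the list genes, also added then, took *MMP9* in fat from 2.44 to 5.48. In fat the 95 alternative values of the 8 genes moved by less than the control SD, and *BGN* went to −0.07 without rhesus_940313 or without rhesus_950509.

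The sign of small muscle differences turned. With the mapped totals *BGN* was at 0.0658 and *LUM* at 0.154. In limma with pseudocounts of 1 and 0.1, *BGN* was at 0.105 and 0.134, *LUM* at 0.216 and 0.275, and *OGN* at 0.0934 and 0.340. The fit of all 10 libraries with the replicate block gave 0.105, 0.216 and 0.0934. With no filter *LUM* was at 0.00266. Leaving out 1 control gave −0.28 to 0.0926 for *BGN* and −0.21 to 0.377 for *LUM*. Between the tissues *FMOD* was at 1.10 with the mapped totals, 1.23 and 1.395 in limma, where it was called, 0.00533 with the filter at 5 RPKM, 0.0470 with the replicate block and −0.68 to 0.279 without 1 control. *PRELP* was called at 2.02 with the mapped totals and 1.94 and 2.02 in limma. The cause was not tested. The replicate block changed no call of the 8 genes, and with it *EPYC* was no longer called between the tissues (adjusted p = 0.278 in edgeR). The filter at 5 RPKM left no value for *LUM* and *OGN* in muscle and *SPOCK1* in fat, and *OGN* had none without rhesus_940129.

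The case was 1 animal, and the smallest permutation p of 1 against 4 is 0.2.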
